A study of Caenorhabditis elegans with 12 samples.

Results

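The strain by code interaction asks which transcripts of the nematode Caenorhabditis elegans changed by a different amount in 2 transgenic strains. It was computed from all 12 arrays of the study, as the log2 difference between codes 2 and 1 in one strain minus the log2 difference between codes 4 and 3 in the other. The HLH strain carried an egl-15::gfp reporter, pRF4 and 2 constructs, pHS::hlh-8 with pHS::hlh-2, and it gave the arrays of codes 1 and 2. The marker strain carried the same egl-15::gfp reporter and pRF4 without the 2 pHS constructs, and it gave the arrays of codes 3 and 4. Both strains therefore share the reporter and pRF4, a transformation marker. Each code had 3 arrays, called biological replicates in the design text, and each title also gave a set number from 1 to 3. The design text says that worms were studied with and without heat shock, but no label ties a code to a treatment or states that code 2 was treated like code 4, so all groups are named by strain and code. The labels give neither the age of the worms nor the number of transgenic lines behind each strain.

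Twist proteins are basic helix-loop-helix (bHLH) transcription factors that shape mesoderm, and they bind DNA in pairs with a partner bHLH protein. In C. elegans the Twist protein is HLH-8, its E/Daughterless partner is HLH-2, and together they act in the postembryonic M lineage, which gives rise to sex muscles and other nongonadal mesoderm. Genes known to be switched on by the pair include egl-15, which encodes the fibroblast growth factor (FGF) receptor, arg-1, which encodes a ligand of the Notch receptor family, the NK-2 homeobox gene ceh-24, the T-box gene mls-1 and hlh-8 itself. A gene that responded only to Twist and E proteins added from code 1 to code 2 would differ between those codes. It would stay level from code 3 to code 4. Transcripts of hlh-8 and hlh-2, however, were already higher at code 1 than at code 3. The interaction cannot show a response that was complete at code 1.

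The values are MAS5 signals, 1 per probe set and array, scaled by the authors to a common level: array medians ran from 180.3 to 208. Of 22625 probe sets, 12328 were bright enough to be tested, and the number of arrays limits the precision. Each array of codes 1 to 4 had a partner with the same set number in every other code, except that 2 code 2 arrays carry the number 2. The array titled 2_2 (2) was placed in set 3, the set with no other code 2 array, and values without it are given beside results that it moved. It differed from the array titled 2_2 by an SD of 0.478 on the log2 scale over probe sets, within the range of 0.382 to 0.680 between other replicates of a code, so both were counted.

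Of the tested probe sets, only that of hlh-8, the Twist construct's gene, met the rule applied here for a change at code 2 only. Its interaction had the smallest p but was not the largest in size. That rule does not compare code 1 with code 3, and hlh-8 was also higher at code 1 than at code 3. No probe set passed the interaction test, and the 95% intervals of the known responders egl-15 and arg-1 included 0. The largest code differences called were those of hsp-16.41 and some other heat shock protein genes, but in both strains.

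In limma, 0 of 12328 probe sets (0%) had an adjusted p under 0.05 in the interaction. Before adjustment, 367 probe sets (2.98%) had a p under 0.05, fewer than the 616 that 5% of the tested probe sets would be. Of these, 157 were positive, meaning that the difference from code 1 to code 2 was greater than that from code 3 to code 4, and 210 were negative. Why fewer than 5% had such a p was not tested, and the low share does not show that interactions are absent. The smallest adjusted p was 0.21, for hlh-8, and the next smallest was 1. Interactions were centred on 0, with a median of −0.0038, and 31 lay above 1 and 21 below −1. The plot of both code differences shows this as a cloud along the line of equal change. A few probe sets lie far out on that line, and some lie high above it. Of probe sets with 1 gene, spig-12, K02F3.12 and hlh-8 had the largest interactions, at 2.99, 2.21 and 2.13. That of K02F3.12, with an SE of 0.72, joined a difference of 0.53 from code 1 to code 2 with one of −1.68 from code 3 to code 4.

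**Figure D1:**
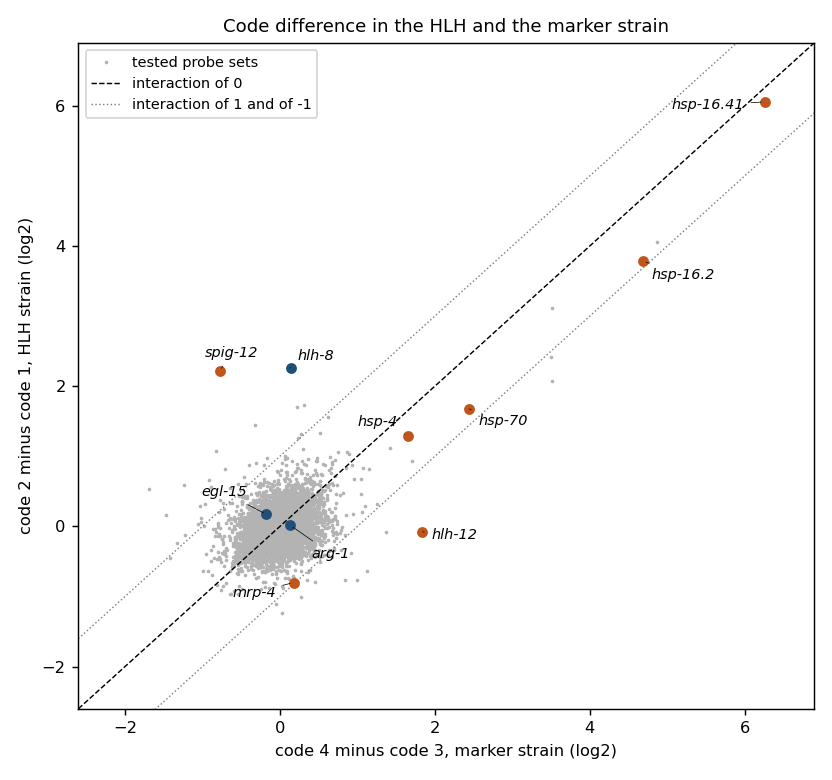
Log2 difference between codes 2 and 1 in the HLH strain (vertical) against that between codes 4 and 3 in the marker strain (horizontal), 1 point per tested probe set (12328), with dashed and dotted lines at interactions of 0, 1 and −1. hlh-8 lies at 2.27 vertically and 0.14 horizontally, while hsp-16.41 lies near the line of equal change at 6.06 and 6.26.

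The size of interaction that could have been seen was limited. The median standard error (SE) was 0.226 on the log2 scale, and the middle 90% of SEs ran from 0.157 to 0.394. A single probe set would have needed a p of 4.1e-06 to pass alone, which at the median SE is an interaction of 1.72, or 3.29-fold. The 95% interval of the interaction lay between −1 and 1 for 10784 probe sets, 87.5% of those tested. Precision was better for brighter probe sets. Split into 3 equal groups by brightness, that share was 72.4% in the dimmest, with a median signal of 237, 93.2% in the middle one, with 511, and 96.8% in the brightest, with 1607. For most bright probe sets an interaction of over 2-fold in either direction thus lies outside the 95% interval. RNA came from lysates, and in bulk RNA of this kind fewer cells of a type and less RNA per cell cannot be told apart.

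hlh-8 had signals of 805.5, 1359.5 and 708 at code 1 in sets 1, 2 and 3, and of 4843, 4696 and 3793.5 at code 2. In the marker strain its signals were 144, 134.5 and 153 at code 3 and 151, 130 and 201 at code 4, below or within the range of the array medians. The 3 code 2 arrays lay above all 9 others, the code 1 arrays lay above all marker strain arrays, and codes 3 and 4 overlapped. From code 1 to code 2 hlh-8 rose by 2.27 ± 0.23 (SE, n = 3 per code) on the log2 scale, 4.81-fold, adjusted p = 0.00047 in limma. The difference between codes 4 and 3 was 0.14 ± 0.23 (SE). The interaction was 2.13 ± 0.32 (SE), a 4.37-fold difference of differences with a 95% interval from 2.70-fold to 7.07-fold. It was positive in each set, at 2.52, 1.84 and 2.03, and 2.25 without the array titled 2_2 (2). Its unadjusted p was 1.7e-05, which became 0.21 over all tested probe sets, so the interaction did not pass. It passed only without the code 1 array of set 2, where the interaction was 2.46 with an adjusted p of 0.0065 in limma. The unadjusted p in limma was 4.6e-06 without the code 4 array of set 3 and 4.2e-06 with the set as a random block. Both lie near the 4.1e-06 needed. Over the other settings tried the adjusted p went as high as 1. hlh-8 was also higher in the HLH strain at code 1 than in the marker strain at code 3, by 2.68 on the log2 scale (adjusted p = 8.4e-05 in limma). It passed the filter on its HLH strain arrays and so entered the test through the strain where it is high, a limit on all its p values. Without the filter the unadjusted p of its interaction was 0.00077 in limma. The probe set cannot tell transcripts of the construct from those of the worm's own hlh-8 gene.

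hlh-2, the gene of the E/Daughterless partner and of the other construct, did not follow this pattern to a measurable degree. Its brighter probe set had signals of 690.1, 1053 and 529 at code 1, of 761, 1508 and 734 at code 2, of 302, 233.5 and 168 at code 3 and of 170.2, 334 and 197 at code 4. Both HLH strain codes lay above both marker strain codes, and codes 1 and 2 overlapped. Within sets code 2 was above code 1 in all 3, by 0.14, 0.52 and 0.47 on the log2 scale, and the second probe set gave 0.32, 0.13 and 0.54. The interaction was 0.40 ± 0.31 (SE), with a 95% interval from −0.27 to 1.07. The second probe set gave 0.33 ± 0.25 (SE), with an interval from −0.22 to 0.88, and 0.15 without the array titled 2_2 (2). Both intervals leave out the interaction of 2.13 measured for hlh-8.

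rol-6, a cuticle collagen gene, is the gene whose dominant allele pRF4 is known for carrying. It had signals of 13032, 12377 and 10844 at code 1, of 15233, 15927 and 10306 at code 2, of 6925, 5562 and 5905 at code 3 and of 5582, 7499.9 and 5799 at code 4. The strains did not overlap, while the codes of each strain did. The interaction was 0.14 ± 0.19 (SE), with a 95% interval from −0.27 to 0.55. It was 0.29 without the array titled 2_2 (2), and quantile normalization turned its sign, at −0.01.

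egl-15, the FGF receptor gene and the gene of the reporter in both strains, was measured by 2 probe sets. The brighter one had signals of 401, 457.5 and 456 at code 1 and of 399, 533.5 and 563 at code 2. They were 552, 782 and 360.1 at code 3 and 526.5, 539 and 383 at code 4, so all 4 codes overlapped. Its interaction was 0.34 ± 0.30 (SE), with a 95% interval from −0.30 to 0.99, and 0.11 without the array titled 2_2 (2). The other probe set, with signals between 303 and 441, had an interaction of 0.03 ± 0.20 (SE), an interval from −0.41 to 0.47, and −0.06 without that array. The sources used here do not state how much of egl-15 the reporter holds.

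arg-1, the Notch ligand gene, had signals of 166, 167.5 and 163 at code 1, of 196, 139 and 173 at code 2, between 139 and 209 at code 3 and of 228, 116.5 and 219 at code 4. These signals lie near the array medians and overlap at all 4 codes. The interaction was −0.11 ± 0.32 (SE), with a 95% interval from −0.81 to 0.58. Leaving out the array titled 2_2 (2) gave −0.11 again.

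ceh-24 and mls-1, the homeobox and T-box genes, were too dim for the test and were measured in a fit without the filter on dim probe sets. ceh-24 had signals of 45, 163 and 103 at code 1, of 69.8, 191.5 and 79 at code 2, of 27, 136 and 15 at code 3 and of 94, 125 and 80 at code 4. The arrays of set 2 were the highest at every code, and 1 code 3 array lay at the floor of 16.7. Its interaction of −1.15 ± 0.71 (SE) came with a 95% interval from −2.82 to 0.51, too wide to give its direction. mls-1 had mean signals of 133 ± 13.1 (SD, n = 3) at code 1, 118.5 ± 7.43 at code 2, 156 ± 37.6 at code 3 and 159 ± 36.3 at code 4. The codes overlapped, with an interaction of −0.18 ± 0.29 (SE), interval −0.86 to 0.50.

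**Figure D2:**
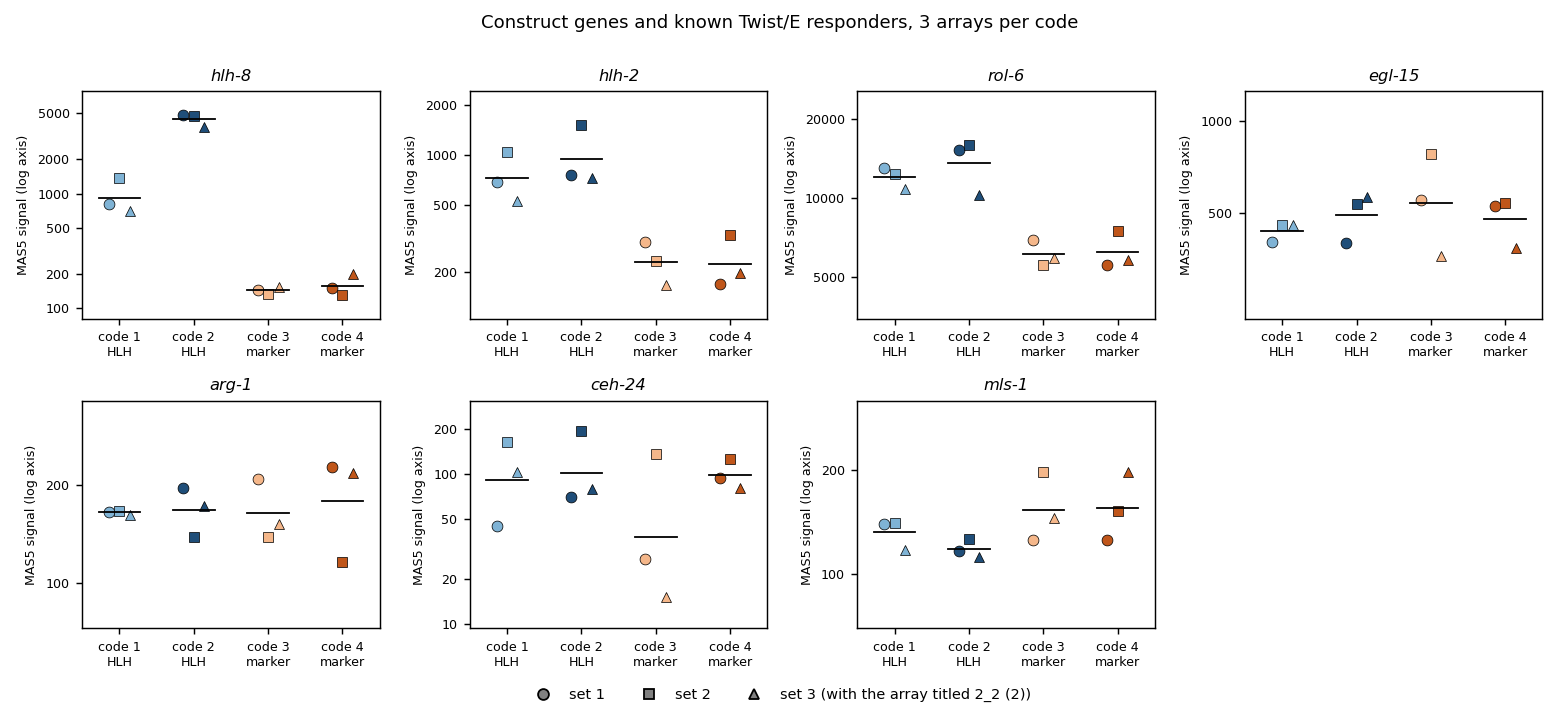
MAS5 signal (log axis) of hlh-8, hlh-2, rol-6, egl-15, arg-1, ceh-24 and mls-1 on each of the 12 arrays, by code, with a symbol per set and a line at the mean of the log2 values. hlh-8 is the one gene whose 3 code 2 arrays (3793.5 to 4843) lie apart from the other 9, while egl-15 and arg-1 overlap at all 4 codes.

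**Figure D3:**
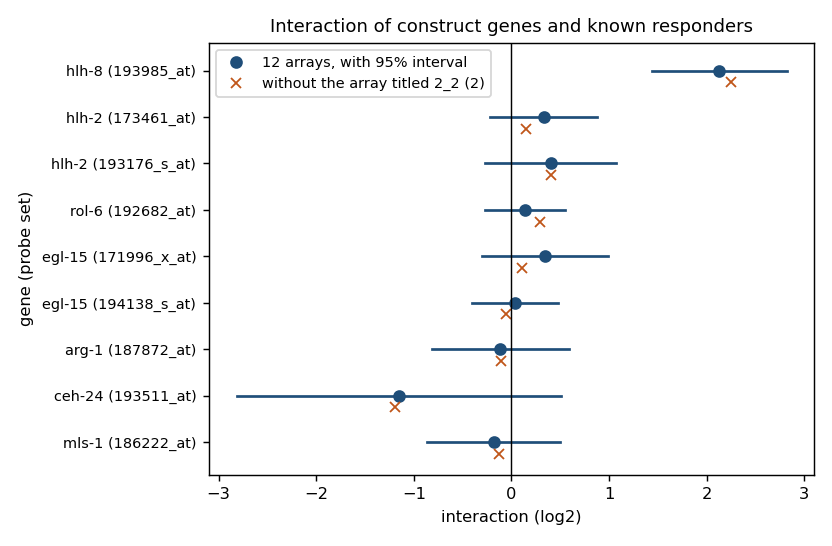
Interaction (log2) of each probe set of the construct genes and known responders, with 95% intervals from 12 arrays (bars) and the value without the array titled 2_2 (2) (crosses). The interval of hlh-8 runs from 1.43 to 2.82 and all other intervals include 0, that of ceh-24 being the widest.

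The rule for a change at code 2 only had 4 conditions: an interaction p under 0.01 before adjustment, all 3 code 2 arrays above or all below the other 9, a log2 difference of at least 1 from code 1 to code 2, and one under 0.5 in size from code 3 to code 4. It was met by 1 of 12328 probe sets (0.00811%), that of hlh-8. Values that chose a probe set in this way are a description and carry no test. The code 2 arrays lay above all others for 68 probe sets (0.552%) and below all others for 48 (0.389%). Most of these differences were small: the median log2 difference from code 1 to code 2 was 0.31 for the 68 and −0.33 for the 48. Some probe sets would take either order without any difference between codes, and how many was not computed. Of the 68, 29 were already higher at code 1 than at code 3 by more than they differed between codes 2 and 1, and of the 48, 16 were lower in the same way. For these probe sets the difference lies mainly between the strains. hlh-8 is itself among the 29, with a log2 difference of 2.68 between codes 1 and 3 against 2.27 between codes 2 and 1. Another example is lea-1, which encodes a late embryogenesis abundant protein, with 4 of its 5 tested probe sets among the 68. Its brightest probe set had signals of 3431, 3397 and 3137 at code 1, of 3721, 3549 and 3737 at code 2, and of no more than 1051 on the 6 marker strain arrays.

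Of the 68, only hlh-8 and spig-12 differed by 1 or more between codes 2 and 1, and of the 48 only cyd-1 did. spig-12 had signals of 77, 124 and 35 at code 1 and of 299, 335 and 334 at code 2. Its marker strain signals were 38, 117 and 42 at code 3 and 41, 18 and 51 at code 4. It exceeded the array medians on its 3 code 2 arrays alone and so entered the test only through the group where it is high, and its values are a description. The difference from code 1 to code 2 was 2.22 ± 0.60 (SE) on the log2 scale, and the interaction was 2.99 ± 0.84 (SE). It fell outside the rule because its difference from code 3 to code 4 was −0.78. That value rests on the code 4 array of set 2, at 18 near the floor: without it the difference was −0.01, the interaction 2.22, and spig-12 met the rule. It also met the rule with the floor at a signal of 50.

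cyd-1, the gene of cyclin D, which acts at the entry into the cell cycle, had signals of 94, 86 and 91 at code 2. They were 231, 299 and 106 at code 1, 159, 164 and 324.5 at code 3, and 137, 235 and 235 at code 4. Its interaction was −1.05 ± 0.54 (SE), unadjusted p = 0.075, and it met the rule only without the code 1 array of set 3, at 106. dgk-2, a diacylglycerol kinase gene, also had its code 2 arrays above the others but did not meet the rule, with signals of 1224, 1170 and 1214 at code 2 and of no more than 1163.5 on the other arrays. Its log2 difference from code 1 to code 2 was 0.39, and its interaction was 0.58 ± 0.19 (SE).

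mrp-4, an ABC transporter gene, had the smallest p among negative interactions. Its signals were 740.3, 759.9 and 947 at code 1, and 456, 461 and 481.5 at code 2. They were 579, 448.5 and 657 at code 3 and 566, 596 and 732 at code 4, so that 1 code 3 array lay below the code 2 arrays. The interaction was −0.98 ± 0.19 (SE), unadjusted p = 0.00016, adjusted p = 1 in limma. From code 1 to code 2 alone mrp-4 fell by 0.80 on the log2 scale (adjusted p = 0.032 in limma), while the difference from code 3 to code 4 was 0.18. F22E5.1 was similar, with signals of 401, 402 and 386 at code 1, of 273.5, 213 and 172 at code 2, of 308, 265 and 271 at code 3 and of 287.5, 241 and 239.6 at code 4. It fell by 0.88 from code 1 to code 2 (adjusted p = 0.04 in limma), with an interaction of −0.74 ± 0.21 (SE), unadjusted p = 0.0042. Without the array titled 2_2 (2) neither call was kept, with adjusted p values of 0.19 for mrp-4 and 0.21 for F22E5.1 in limma. For both genes the code 1 arrays lay above all others. The code 2 arrays were on average below those of code 4, with log2 differences of −0.43 for mrp-4 and −0.24 for F22E5.1. Both were also higher at code 1 than at code 3, by 0.55 and 0.50 on the log2 scale.

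**Figure D4:**
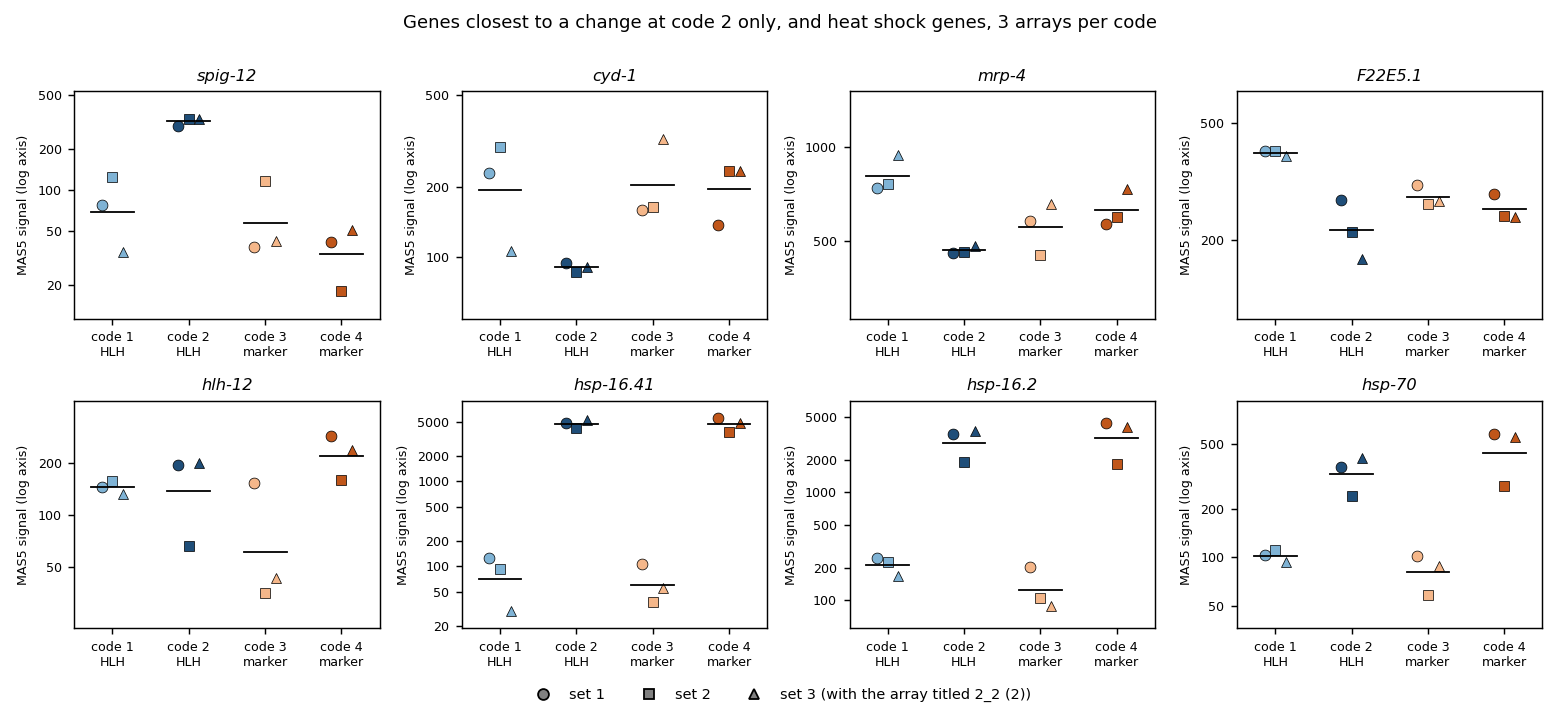
MAS5 signal (log axis) of spig-12, cyd-1, mrp-4, F22E5.1, hlh-12, hsp-70, hsp-16.2 and hsp-16.41 on each of the 12 arrays, by code, with a symbol per set and a line at the mean of the log2 values. spig-12 (299 to 335) and cyd-1 (86 to 94) have their code 2 arrays apart from the other 9, while the 3 heat shock genes are high at codes 2 and 4 alike.

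Without the array titled 2_2 (2), the rule was met by 3 probe sets. hlh-8 was joined by sid-2, a gene for uptake of double-stranded RNA from the gut, with an interaction of 1.21, and by apc-11, a subunit of the anaphase-promoting complex, with −1.28. sid-2 had signals of 453 and 478 on the other code 2 arrays and of 305 on the one left out, inside the 153 to 430.4 of the remaining codes. apc-11 had 107 and 131 on the other code 2 arrays and 230.4 on the one left out, again inside the 179 to 281 of the remaining codes. With all 12 arrays their interactions were 1.09 and −0.87, adjusted p = 1 in limma for both. Across 28 settings of the rule, hlh-8 met it in 27, all but the one that tested only probe sets above the array median on 9 of 12 arrays, which left hlh-8 out. A further 13 genes met it under at least 1 setting, and 18 settings gave exactly 1 probe set.

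A further 10 genes, picked after their values were seen from the 12 smallest interaction p of each sign, had an adjusted p of 1 in limma. In each of them the differences of the strains had opposite signs with all 12 arrays. That of lst-6 in the marker strain was only −0.13, and that of wbp-2 in the HLH strain only −0.08. The positive ones were bus-18, with 0.84 ± 0.20 (SE), the F-box gene fbxl-5, with 1.04 ± 0.27, lst-6, a lateral signalling target gene, with 0.68 ± 0.19, lid-1, a lipid droplet protein gene, with 0.88 ± 0.25, and the sex determination gene fem-1, with 0.67 ± 0.20. fbxl-5, for example, had signals of 197, 262 and 209 at code 1 and of 382, 357 and 279 at code 2, but also 228, 454 and 313 at code 3 and 219.8, 266 and 225 at code 4. Its interaction thus joined a difference of 0.61 from code 1 to code 2 with one of −0.43 from code 3 to code 4. The negative ones were xtr-1, with −1.11 ± 0.26 (SE), wbp-2, with −0.81 ± 0.22, ifta-1, with −0.94 ± 0.26, egl-26, with −0.63 ± 0.18, and the carbonic anhydrase gene cah-3, with −0.70 ± 0.20. In wbp-2 the difference lay in the marker strain: signals were 644, 549 and 838.5 at code 1 and 732, 588 and 577 at code 2, but 326, 334 and 460 at code 3 and 619.8, 494 and 731 at code 4. Its HLH strain difference was 0.13 without the array titled 2_2 (2), and both strains then had the same sign.

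Within strains, 13 probe sets were higher at code 2 than at code 1 (0.105%) and 7 lower (0.0568%), while 14 were higher at code 4 than at code 3 (0.114%) and 3 lower (0.0243%). No array enters the code differences of both strains. Called in both were 10 probe sets, 50% of the 20 of the HLH strain and 58.8% of the 17 of the marker strain. The other 10 of the HLH strain were T16G12.1, Y48E1B.8, F22E5.1, dnj-13, pcp-3, mrp-4, icl-1, ugt-13, acl-12 and hlh-8. Being called in one strain only does not make a difference between strains: 9 of the 10 had the same sign in the marker strain, and for only 3, hlh-8, mrp-4 and F22E5.1, was the marker strain difference under 0.2 in size. The glyoxylate cycle gene icl-1, for example, was higher at code 2 by 0.68 on the log2 scale and at code 4 by 0.36, and its interaction was 0.32 ± 0.17 (SE). The glucuronosyltransferase gene ugt-13 was higher by 0.94 and 0.48, with an interaction of 0.46 ± 0.19 (SE), and acl-12 by 0.97 and 0.37, with 0.60 ± 0.22 (SE). Without the array titled 2_2 (2), 6 of the 20 calls of the HLH strain were kept.

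Some heat shock protein genes, whose products hold or refold damaged proteins, had the largest code differences called in both strains. Not all did. Over the 10 tested genes for small or inducible heat shock proteins the median log2 difference was 0.31 in the HLH strain and 0.50 in the marker strain. hsp-16.41 had signals of 127, 94 and 30.2 at code 1 and of 4775, 4261 and 5233.5 at code 2. It had 105.5, 38 and 55.5 at code 3 and 5505, 3789 and 4859 at code 4. Codes 2 and 4 overlapped and so did codes 1 and 3, and the interaction was −0.21 ± 0.51 (SE). hsp-16.2 had signals of 247, 224 and 167.5 at code 1, of 3479, 1900.2 and 3673 at code 2, of 204, 105.5 and 88 at code 3 and of 4407.5, 1814 and 4021 at code 4. Its interaction was −0.90 ± 0.39 (SE), unadjusted p = 0.037, and −1.15 without the array titled 2_2 (2), unadjusted p = 0.0098 and adjusted p = 1 in limma. hsp-70 had 103.7, 111 and 94 at code 1, 361, 238 and 408 at code 2, 102, 59 and 89 at code 3 and 575, 274 and 549.9 at code 4. Its interaction was −0.77 ± 0.34 (SE), unadjusted p = 0.041. For both genes the set 2 arrays were the lowest at codes 2 and 4, and the code 3 arrays were on average below those of code 1.

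All 9 probe sets called as higher at both codes 2 and 4 had a negative interaction, that is, a smaller difference in the HLH strain than in the marker strain, and none passed. The sizes ran from −0.02 for the fatty acid desaturase gene fat-6 to −1.08 for a probe set shared by F44E5.5 and F44E5.4. The other probe set of that pair was not called for code 2 against 1 (adjusted p = 0.078 in limma). Its interaction was −1.44 ± 0.56 (SE), unadjusted p = 0.024 in limma, and it did not pass either. The sign turned for fat-6 under quantile normalization, at 0.04, for hsp-16.41 without the 4 arrays of set 2, at 0.26, and for both and hsp-17 without single other arrays. Of 10 tested genes for small or inducible heat shock proteins, 2 had an unadjusted p under 0.05, both negative, and 9 had a negative interaction, with a median of −0.21. Over all genes tested, 4595 of 9418 were negative and 2.8% had an unadjusted p under 0.05. Quantile normalization left 8 negative, and over 22 settings the number ran from 5 to 9 and the median from −0.43 to −0.086. The median was −0.40 without the array titled 2_2 (2), and the 5 came without the code 2 array of set 1. Of 20 constitutive chaperone genes, 17 were negative, also with a median of −0.21. Over the settings 11 to 19 were negative and the median ran from −0.30 to −0.017, the latter with the array titled 2_2 (2) in set 2. One of them, sti-1, a co-chaperone of HSP70 and HSP90, had an unadjusted p under 0.05, at −0.59 ± 0.25 (SE). No member of either list passed the test.

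The lists of mesoderm and signalling genes were compared with all genes tested. By their brightest probe set, 264 of 9418 genes (2.8%) had an unadjusted p under 0.05, with 127 positive, 137 negative and a median interaction of 0.01. Of 20 regulators of the M lineage and mesoderm, 1 was positive at that p, hlh-8 itself, none was negative, and the median was −0.05. The next smallest p values on that list belonged to the forkhead gene let-381, with −0.53 ± 0.27 (SE), the muscle regulator unc-120, with 0.36 ± 0.20, and the foregut selector pha-4, with −0.27 ± 0.20. let-381 had mean signals of 195 ± 19.9 (SD, n = 3) at code 1, 147 ± 29.4 at code 2, and 175 ± 27.1 at code 3, and signals between 163 and 209 at code 4. Its code 2 arrays overlapped the others. The Hox genes mab-5 and lin-39, which pattern the M lineage and its neighbours, had 0.20 ± 0.21 and −0.19 ± 0.22 (SE), and the zinc-finger gene fozi-1, needed for M lineage fates, −0.14 ± 0.21 (SE). The SoxC gene sem-2, which promotes the sex myoblast fate, had −0.25 ± 0.20 (SE).

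None of the 10 tested FGF signalling genes, egl-15 among them, had an unadjusted p under 0.05, and their median was 0.05. The Ras gene let-60 had 0.26 ± 0.14 (SE), the adaptor sem-5 −0.21 ± 0.18, the scaffold soc-2 0.14 ± 0.15, the receptor phosphatase clr-1 −0.15 ± 0.18 and the MAP kinase mpk-1 0.14 ± 0.17. All 10 intervals lay between −1 and 1. None of 13 Notch signalling genes had an unadjusted p under 0.05 either, also with a median of 0.05. The receptor gene lin-12 had −0.35 ± 0.28 (SE), the nuclear effector lag-1 0.30 ± 0.27, the gamma-secretase gene aph-2 0.29 ± 0.23 and the ligand gene apx-1 0.00 ± 0.28. All 13 intervals lay between −1 and 1. Most genes had such an interval, 8305 of all 9418 tested, so it does not set the FGF and Notch lists apart.

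Among 19 tested bHLH genes, hlh-8 was positive and hlh-12 negative at an unadjusted p under 0.05. hlh-12, known for guiding the migrating distal tip cells of the gonad, had an interaction of −1.92 ± 0.58 (SE), unadjusted p = 0.0059, adjusted p = 1 in limma. Its signals were 145, 157.5 and 133 at code 1, 195, 66.5 and 199 at code 2, 152.5, 36 and 43 at code 3 and 286, 159 and 238 at code 4. The interaction came from the marker strain, with a difference of 1.84 from code 3 to code 4 and of −0.08 from code 1 to code 2. The other bHLH genes lay between −0.49 for hlh-14 and 0.40 for hlh-2.

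No gene on the lists of cell type markers passed the test. Of 41 tested muscle genes, which include those of the tissue that the M lineage adds to, unc-97, a LIM-domain protein of muscle attachments, was the 1 gene with an unadjusted p under 0.05, at 0.44 ± 0.17 (SE), and the list's median was 0.01. All 41 intervals lay between −1 and 1, as did those of most genes tested (8305 of 9418). On some lists fewer did: 8 of 11 sperm genes, 14 of 19 bHLH genes and 6 of 10 small or inducible heat shock genes. The medians were −0.13 over 12 pharynx genes, −0.03 over 18 intestine genes, −0.08 over 21 hypodermis genes, −0.01 over 16 collagens of body shape and −0.01 over 32 neuron genes. Among these the hypodermal gene wrt-8, related to Hedgehog, was the 1 with an unadjusted p under 0.05, at 0.55 ± 0.20 (SE). The yolk receptor gene rme-2, at −0.73 ± 0.25 (SE), was the 1 such gene of 20 for oogenesis and germline (median −0.11), and the sperm surface gene spe-9, at −1.01 ± 0.36 (SE), of 11 for sperm (median −0.15). Negative were 14 of the 20 and 9 of the 11, but both counts moved with single arrays. Over the settings they ran from 9 to 19 and from 5 to 11, and the medians from −0.24 to 0.051 and from −0.39 to 0.0028. The lowest median of both lists came without the array titled 2_2, and the highest without the code 1 array of set 2. Over 23 genes of endoplasmic reticulum stress none had an unadjusted p under 0.05 and the median was 0.02. The plot by list shows hlh-8 apart on every list that holds it and most other genes between −0.5 and 0.5.

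**Figure D5:**
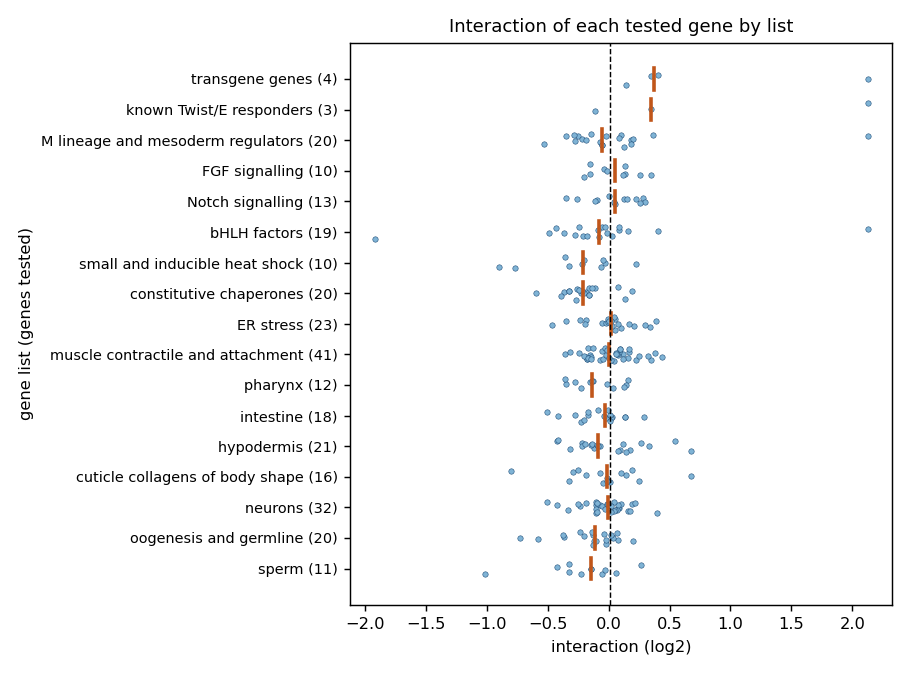
Interaction (log2) of each tested gene by list, with 1 point per gene at its brightest probe set, a bar at each list's median and a dashed line at the median of all 9418 genes tested (0.01). hlh-8 lies at 2.13 on the lists that hold it and hlh-12 at −1.92, while the heat shock and chaperone medians lie at −0.21.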

How the data were processed

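Per the labels' protocols, cRNA labelled with biotin was made from total RNA. The authors deposited 1 value per probe set and array, an intensity (MAS5 signal) on a linear scale. MAS5 is the tool named, per the submitters' processing notes, with neither a version nor settings. Every array has a 2% trimmed mean of 500.1, which shows the authors' scaling, and this was kept. MAS5 subtracts a local background, so ratios of dim signals are noisy.

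Signals under the 10th percentile (16.7) were raised to it before log2 was taken, which touched 0.0291% of tested values. Controls (77 probe sets) were not used. Tested probe sets exceeded the median of the array on 3 or more of 12 arrays. One limma 3.58.1 model (R 4.3.3, lmFit and eBayes with an intensity trend) held the 4 codes and the set number as a block, with 6 residual degrees of freedom (5 without the array titled 2_2 (2)) and 6.91 prior ones. Tests were two-sided and adjusted by Benjamini-Hochberg over 12328 probe sets. The procedure was tested on simulated data with independent normal errors, which the values of these arrays need not have.

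Deviations from the code means correlated in all 18 pairs of one set (r from 0.23 to 0.79). Between sets 1 and 3 r was also positive, from 0.02 to 0.40, so those ranges overlap. Between set 2 and the other sets r was negative. The array titled 2_2 (2) correlated with set 3 at 0.23 to 0.54, with set 1 at 0.05 to 0.24 and with set 2 at −0.51 to −0.31. It was placed in set 3, which had no other code 2 array, and no label gives it that set.

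Of 22625 probe sets, 20766 have 1 annotated gene, 887 several and 972 none listed, and 20701 symbols were updated through the gene table of assembly WBcel235. Genes were represented on lists by their brightest probe set of 1 gene. Named were called and code 2 only genes, every probe set of the construct genes and known responders, and up to 4 genes per list with the smallest p, other names being chosen after their values were seen. The comparison, lists and rules were chosen with earlier results of these data known. Alternatives covered the block, the array titled 2_2 (2), scaling, floor, filter, trend and each array left out.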

Additional observations from a re-analysis of the deposited data

How the results depend on the processing

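With 3 arrays per code, small interactions could not be seen, least of all for dim probe sets near the background such as ceh-24. The count of interactions called in limma ran from 0 to 1 when single arrays were left out, which leaves 1 code with 2 arrays, the 1 being hlh-8 at 2.46 without the code 1 array of set 2. Under the other 12 settings it was 0. The count of interactions with an unadjusted p under 0.05 was 87 with no replicate block and 993 without the filter on dim probe sets, where more probe sets are tested. The sets are paired across codes, and without that block calls went to 5 for code 2 against 1 and 7 for code 4 against 3. Code 2 against 1 gave 6 calls without the array titled 2_2 (2) or with it in set 2, 7 with it averaged with the array titled 2_2, 9 without set 2, 4 without the filter, 8 without the intensity trend, and 5 to 24 with single arrays left out. Code 4 against 3 gave 10 without set 2, 5 without the filter, and 8 to 19 with single arrays left out. The rule for a change at code 2 only gave 3 probe sets without the array titled 2_2 (2), 2 with a floor of 50, 7 with no filter, 0 with the filter at 9 of 12 arrays, which takes hlh-8 out of the test, 1 to 2 with single arrays left out, and 2 when the code 4 against 3 difference had only to be under 0.5 times that of code 2 against 1, a condition added after the data were seen. Signs turned in 29 of 1207 values of 53 named probe sets. For the dimmer egl-15 probe set they did so without the array titled 2_2 (2) (−0.060), with it in set 2 (−0.056) or averaged (−0.062), and without set 2 (−0.084). For fat-6 they did with the array titled 2_2 (2) in set 2 (0.040) or averaged (0.046) and under quantile normalization (0.037). They also turned for soc-2 with that array in set 2 (−0.042), for hsp-16.41 without set 2 (0.26) and for rol-6 under quantile normalization (−0.012). With single arrays left out, interactions ran from −0.017 to 0.30 for rol-6, −0.078 to 0.099 for this egl-15 probe set, −0.34 to 0.085 for arg-1, −0.34 to 0.041 for mls-1, −0.10 to 0.060 for fat-6, −0.16 to 0.042 for hsp-17 and −0.84 to 0.18 for hsp-16.41. The cause of these changes was not tested.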
